A study of Mus musculus with 10 samples.

Results

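The collagen genes are described here across 4 populations of innate lymphoid cells (ILCs), which were sorted from adult B6 mouse skin. Members were the genes whose symbol is Col, a type number, the letter a and a chain number, with pseudogenes left out. They numbered 44 of the 47643 gene IDs in each table, and 40 of them had a count in at least 1 of the 10 libraries. ILCs are tissue lymphocytes without rearranged antigen receptors. The groups were epidermal ILCs (3 libraries), dermal ILCs sorted as CCR6+ (2), dermal ILCs sorted as Sca1+ (2) and subcutaneous ILCs (3). The sorting marker CCR6 is a receptor for a chemokine, and Sca1 is the product of Ly6a. All groups shared strain, tissue and life stage, and the labels name no treatment, no allele and no age in days or weeks. The labels do not say whether libraries of a group came from separate animals, so p-values measure only how these libraries vary, and part of that may be technical.

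Collagens are secreted or membrane proteins of the extracellular matrix in which 3 chains wind into a triple helix. Glycine recurs in every triplet of residues along the helix, because no other residue is small enough to face its axis. Fibrillar collagens form the load-bearing fibrils of the dermis and are made mainly by fibroblasts. Basement membrane collagens form the sheets and anchors under epithelia and around vessels. Other collagens decorate fibrils, form beaded microfilaments or short-chain networks, or span the cell membrane. Lymphocytes are not known as a major source of fibrillar collagen. The members were placed in these classes, with 11 fibrillar, 9 basement membrane and 24 other genes, the last including 6 of type VI, 9 fibril-associated, 3 short-chain, 4 membrane-spanning and 2 remaining genes.

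Stretches of 90 bases of the coding sequence are shown for 1 fibrillar, 1 basement membrane and 1 membrane-spanning gene, because unbroken runs of glycine triplets were longer in fibrillar genes than in the others. The stretches were not placed alike: that of Col3a1 opens its longest run, and those of Col4a1 and Col17a1 cover the end of theirs, so they illustrate the runs and compare nothing. They come from GENCODE M21 transcripts (GRCm38) and run 5′ to 3′ in frame. Capitals mark the GGN glycine codons of an unbroken run of glycine triplets.
Col3a1, codons 164 to 193: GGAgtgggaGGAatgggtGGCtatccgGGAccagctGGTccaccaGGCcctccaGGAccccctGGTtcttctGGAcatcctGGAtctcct
Col4a1, codons 1338 to 1367: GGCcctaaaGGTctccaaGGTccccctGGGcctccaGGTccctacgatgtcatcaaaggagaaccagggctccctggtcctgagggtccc
Col17a1, codons 801 to 830: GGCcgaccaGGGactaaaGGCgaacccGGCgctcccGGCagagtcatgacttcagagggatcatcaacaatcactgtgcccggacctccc
In Col3a1 a glycine codon opened every triplet of the stretch shown, 10 in all. In Col4a1 and Col17a1 the stretch shown holds the last 5 glycine codons of the longest run. The longest run was 344 triplets in Col3a1, 40 in Col4a1 and 56 in Col17a1. Col3a1 had 2 runs of at least 10 triplets, Col4a1 had 18 and Col17a1 had 5. Over the classes the longest run had a median of 338 triplets in fibrillar genes (216 to 344), of 42 in basement membrane genes (30 to 75) and of 48.5 in other genes (23 to 113), so that the last 2 classes overlapped. Col24a1 and Col27a1, with 216 and 217 triplets, were the shortest of the fibrillar genes, and the other 9 fibrillar genes had at least 337. All 44 members had a run of at least 10 triplets, against 54 of 21446 other genes with a coding sequence (0.252%). GGN codons made up a median of 24.2% of the codons of the members and of 6.03% over all genes.

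**Figure D1:**
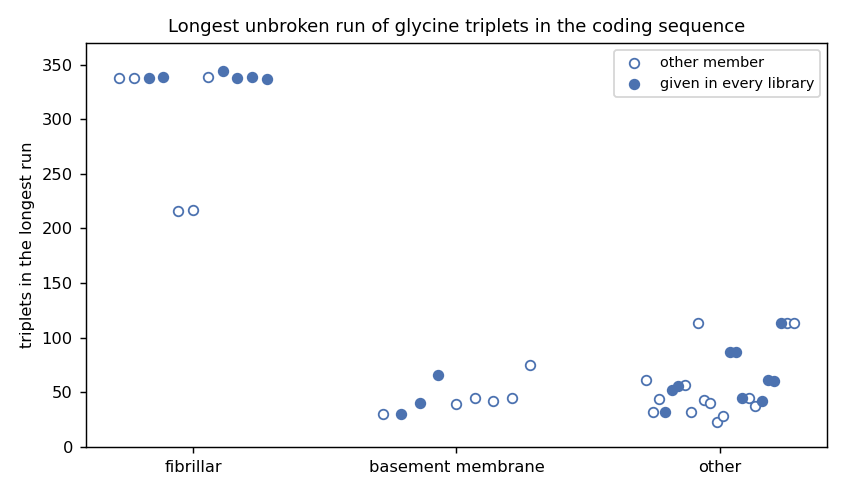
Longest unbroken run of glycine triplets in the coding sequence (y axis, triplets) by collagen class (x axis), 1 point per gene. Filled points mark genes called in at least 1 comparison or with a mean of at least 5 TPM in a group. Fibrillar genes lie at 216 to 344 triplets and all others at 23 to 113.

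The 250 bases before the transcription start are shown for Col17a1, the most abundant collagen of the epidermal libraries, and for Col3a1 and Col1a2, which were among the 3 most abundant in every other library. The sequences and starts are RefSeq's (GRCm38.p6), read 5′ to 3′ on the strand of the gene. For Col1a2 and Col17a1 that start lies inside the GENCODE span of the gene given below. The bases shown therefore lie wholly (Col1a2) or partly (Col17a1) within that span. Capitals mark matches, on either strand, to 3 short motifs. The GC box was searched for as the letters GGGCGG. The motif CCAAT is the binding sequence known from many promoters under that name. The TATA box was searched for as TATAAA, and no match shown overlaps another.
Col3a1, chr1:45311288-45311537, plus strand: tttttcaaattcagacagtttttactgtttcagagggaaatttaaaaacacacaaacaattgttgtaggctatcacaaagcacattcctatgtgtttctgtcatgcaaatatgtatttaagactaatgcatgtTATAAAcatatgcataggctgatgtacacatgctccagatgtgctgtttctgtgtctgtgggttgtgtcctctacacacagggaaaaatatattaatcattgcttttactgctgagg
Col1a2, chr6:4505368-4505617, plus strand: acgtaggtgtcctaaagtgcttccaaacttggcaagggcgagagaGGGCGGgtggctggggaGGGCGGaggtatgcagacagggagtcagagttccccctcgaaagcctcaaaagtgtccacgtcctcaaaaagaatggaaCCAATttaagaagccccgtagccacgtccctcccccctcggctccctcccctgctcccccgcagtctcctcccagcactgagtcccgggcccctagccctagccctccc
Col17a1, chr19:47692043-47692292, minus strand: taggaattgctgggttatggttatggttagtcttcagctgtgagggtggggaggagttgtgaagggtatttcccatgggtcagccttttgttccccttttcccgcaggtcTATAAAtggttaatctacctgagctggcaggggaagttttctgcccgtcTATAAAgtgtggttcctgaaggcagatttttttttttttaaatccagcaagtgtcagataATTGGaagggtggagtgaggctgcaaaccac
The Col3a1 promoter held 1 TATA box, which began 117 bases before the start. The 250 bases of Col1a2 held 2 GC boxes and 1 CCAAT box, which began 205, 188 and 109 bases before the start. The Col17a1 promoter held 2 TATA boxes, beginning 140 and 91 bases before the start, and 1 CCAAT box on the other strand, beginning 31 bases before it. GC content was 35.2%, 62% and 46% over the bases shown of Col3a1, Col1a2 and Col17a1. Promoters of 35 members were matched by symbol, as 38 windows of 300 bases that ran to 50 bases after the start. A GC box was in 60.5% of these windows and in 35.7% of all 32851 windows of that length. A CCAAT box was in 34.2% and 37.4%, and a TATA box in 13.2% and 13.6%. A match is a run of letters and not evidence of binding.

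Library totals lay between 11627222 and 18118544 expected counts. Levels of different collagen genes are set side by side in TPM, an abundance corrected for gene length and scaled to the same sum in every library. Where counts of different genes are set side by side, this is stated. Levels in CPM are counts scaled to library size (TMM) without correction for gene length, and 3 counts of a library corresponded to 0.149 to 0.258 CPM. They are used within a gene, to rank and sum the members of a list, and for collagen levels per summed markers. No replicate pair was as close as sampling noise alone would make it (chi-square over its degrees of freedom 39.8 or more). All 7 ILC markers of the list used (such as Il2rg and Rora) were detected in every library, with sums of 6057 to 6588 CPM in epidermal and 9590 to 12670 CPM in all other libraries. Of these, Il2rg, Gata3 and Rora were lower and Thy1 was higher in epidermal than in subcutaneous libraries. Markers of other skin cells were present as well, and their levels differed by layer. The sum of 10 fibroblast markers was 0.348 to 10.7 CPM in epidermal libraries, 557 and 282 CPM in dermal CCR6+, 631 and 1113 CPM in dermal Sca1+ and 978 to 1538 CPM in subcutaneous libraries. Of these, Dcn reached 1.97 ± 3.4 CPM (SD, n = 3) in epidermal and 595 ± 173 CPM (SD, n = 3) in subcutaneous libraries, and Lum 1.12 ± 1.9 and 181 ± 67.8 CPM. Pdgfra, Fstl1, Mfap5 and Twist2 were at 0 in every epidermal library. The sum of 10 endothelial markers, led by Plvap and Pecam1, was 3.9 to 7.86 CPM in epidermal and 197 to 738 CPM in all other libraries. The sum of 8 mural cell markers, led by Acta2 and Tagln, was 10.8 to 19.6 CPM in epidermal and 129 to 552 CPM in all other libraries. The sum of 10 keratinocyte markers, led by Krt15 and Krtdap, ran the other way, with 2667 to 6962 CPM in epidermal, 1374 to 2069 CPM in dermal and 79.2 to 179 CPM in subcutaneous libraries. Macrophage markers summed to 7.66 to 15 CPM in epidermal, 179 to 670 CPM in dermal and 3980 to 7391 CPM in subcutaneous libraries. Simple and glandular epithelium markers, led by Krt8 and Krt19, summed to 4723, 1680 and 2208 CPM in subcutaneous libraries, highest in replicate 1, and to 30 to 74.1 CPM in all others. Of these 8 markers, 7 were lower in epidermal, 7 in dermal CCR6+ and 8 in dermal Sca1+ than in subcutaneous libraries. Over all genes tested, 13.3%, 3.71% and 0.993% were lower in these comparisons (adjusted p under 0.05 in the edgeR test described below). Adipocyte markers, led by Fabp4 and Lpl, summed to 1.04 to 3.91 CPM in epidermal, 62 to 198 CPM in dermal and 308 to 608 CPM in subcutaneous libraries. The second dermal CCR6+ library had the lowest fibroblast, endothelial and mural sums of the 4 dermal libraries. The part of these other cells in the collagen levels below was not tested. In bulk RNA, fewer cells of a type and less RNA per cell cannot be told apart.

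Collagen transcripts together were scarce in epidermal libraries and abundant in all others, and a different gene led them. Their summed level was 61.9, 28.7 and 50.8 TPM in the 3 epidermal libraries. It was 559 and 332 TPM in dermal CCR6+, 628 and 898 TPM in dermal Sca1+, and 966, 998 and 644 TPM in subcutaneous libraries. The lowest of the other 7 libraries, dermal CCR6+ replicate 2, was thus above every epidermal library. Col17a1 made up 48.2%, 50.4% and 55.8% of the collagen TPM in the epidermal libraries. Col3a1 came first in all 7 others, with 33.4% and 35.3% in dermal CCR6+, 35.4% and 46.5% in dermal Sca1+, and 47.7%, 52.8% and 51% in subcutaneous libraries. By class, fibrillar genes held 10.6% to 11.1% of the collagen TPM in epidermal libraries, 78.4% to 87.9% in dermal and 78.7% to 84.8% in subcutaneous libraries. Basement membrane genes held 13.9% to 26.8% in epidermal and 2.76% to 6.67% in the other libraries. Membrane-spanning genes held 49.6% to 59% in epidermal, 2.82% to 3.32% in dermal and 0.0901% to 0.235% in subcutaneous libraries.

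**Figure D2:**
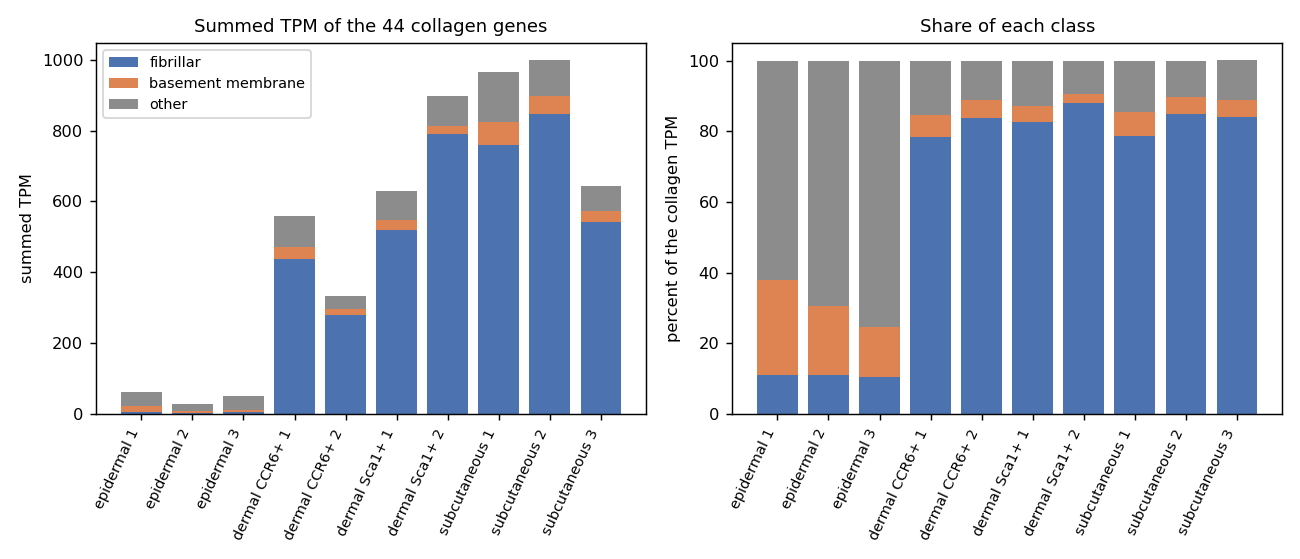
Summed TPM of the 44 collagen genes (left) and the percent of it in each class (right) for each of the 10 libraries, 1 bar per library. Epidermal libraries reach 28.7 to 61.9 TPM with mostly other collagens, and the remaining libraries reach 332 to 998 TPM with 78.4% to 87.9% fibrillar collagens.

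Differences between groups were tested with edgeR's quasi-likelihood test on expected counts, with Benjamini-Hochberg adjustment over all 16208 genes tested and an adjusted p under 0.05 as the call. Of the 44 members, 37 passed the filter on low counts. Counts in 1 group alone could satisfy that filter, as they did for Col9a1 and Col11a1 in subcutaneous libraries. Between epidermal and subcutaneous libraries, 15 of 37 were lower and 1 was higher in epidermal libraries, while 13.3% of all genes tested were lower and 6.87% higher (20.2% in all). Between epidermal and dermal CCR6+ libraries, 12 of 37 were lower and none was higher in epidermal libraries, against 5.19% and 0.987% of all genes tested (6.18% in all). The epidermal and dermal Sca1+ libraries differed in 11 of 37, all lower in epidermal libraries, against 8.66% lower and 2.75% higher over all genes tested (11.4% in all). For these comparisons, in that order, 23, 16 and 18 members had an unadjusted p under 0.05, against 33.6%, 20.1% and 25.8% of all genes tested. The 11 members lower in epidermal libraries in all 3 comparisons were Col1a1, Col1a2, Col3a1, Col5a2, Col5a3, Col4a1, Col4a2, Col6a1, Col6a2, Col6a3 and Col14a1. The median log2 fold change of the 37 members was -5.99 between epidermal and subcutaneous libraries, or -4.19 with the 11 members that lack counts in 1 group set at their bound, and -0.02 over all genes tested. These 3 comparisons share the epidermal libraries and are not independent of one another.

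**Figure D3:**
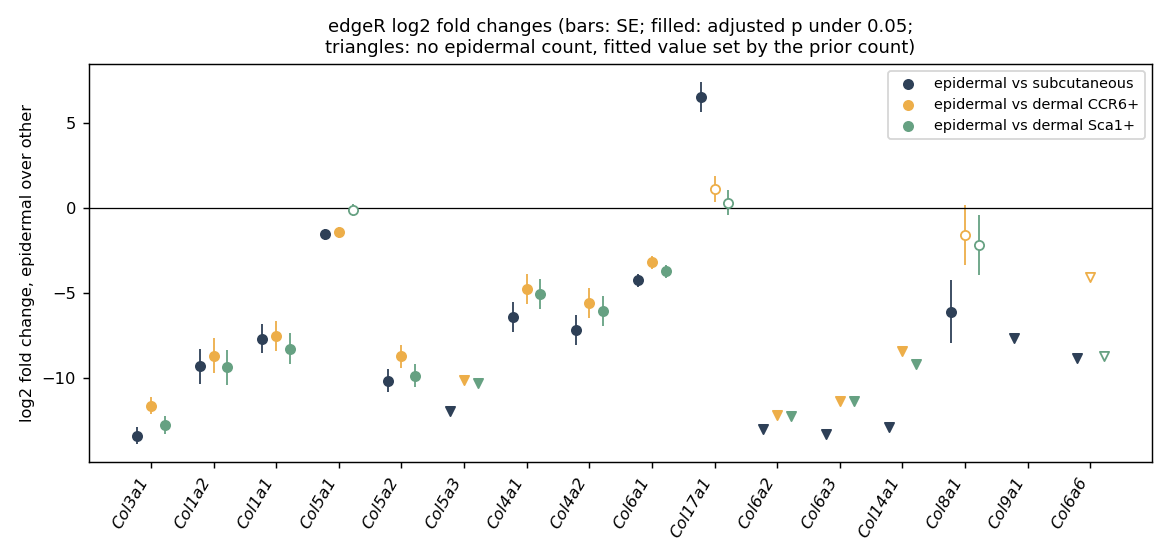
edgeR log2 fold change of the 16 collagen genes called in at least 1 comparison, epidermal over each other group (y axis), with SE bars; filled symbols have an adjusted p under 0.05. Col17a1 lies above 0 and the others lie at or below it; triangles mark genes without an epidermal count, whose fitted value is set by the prior count and measures no fold.

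The fibrillar genes form the bulk of the dermal matrix, and 6 of the 8 tested were lower in epidermal than in subcutaneous and in dermal CCR6+ libraries, and 5 of 8 than in dermal Sca1+ libraries. Of the 10 fibroblast markers, 10, 7 and 9 were lower in the epidermal libraries of these comparisons, against 13.3%, 5.19% and 8.66% of all genes tested. Col3a1 (ENSMUSG00000026043.18, chr1:45311538-45349706) encodes the single chain of type III collagen, a fibril partner of type I in skin and vessel walls. Its TPM were 0.01, 0.03 and 0.05 in epidermal, 187 and 117 in dermal CCR6+, 223 and 417 in dermal Sca1+, and 461, 527 and 328 in subcutaneous libraries. It was the most abundant collagen of all 7 libraries outside the epidermis, and rested on 7 counts over the 3 epidermal libraries against 62287 over the subcutaneous ones. The log2 fold change of Col3a1 between epidermal and subcutaneous libraries was -13.36 ± 0.51 (SE, adjusted p = 3.74e-07). Against dermal CCR6+ it was -11.62 ± 0.5 (adjusted p = 4.84e-06) and against dermal Sca1+ -12.75 ± 0.51 (adjusted p = 2.37e-06).

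Type I collagen, the main fibril protein of dermis, tendon and bone, is built from the products of Col1a1 and Col1a2. Col1a1 (chr11:94936224-94953042) stood at 0.61, 0 and 0.98 TPM in epidermal, 114 and 63.4 in dermal CCR6+, 134 and 172 in dermal Sca1+, and 105, 108 and 77.1 in subcutaneous libraries. Col1a2 (chr6:4504814-4541544) stood at 0.03, 0 and 0.71 TPM in epidermal, 122 and 81.5 in dermal CCR6+, 150 and 185 in dermal Sca1+, and 163, 181.9 and 117 in subcutaneous libraries. Both chains were far below all other libraries in the epidermis, and outside it the highest Col1a1 value came from a dermal Sca1+ library rather than from the subcutis. Epidermal replicate 2 had no count of either chain and the lowest fibroblast marker sum of the 3, and epidermal replicate 3 had the highest level and the highest sum. Between epidermal and subcutaneous libraries the log2 fold change was -7.67 ± 0.87 for Col1a1 (SE, adjusted p = 0.000173). It was -9.3 ± 1.02 for Col1a2 (adjusted p = 0.000137).

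Type V collagen is a minor partner inside type I fibrils that starts their assembly and limits their width. Its chain genes parted ways. Col5a2 (chr1:45374321-45503282) had 0, 0 and 0.06 TPM in epidermal, 3.9 and 3.47 in dermal CCR6+, 5.95 and 9.63 in dermal Sca1+, and 13.4, 7.9 and 6.67 in subcutaneous libraries. Col5a3 (chr9:20770050-20815067) was at 0 in the 3 epidermal libraries, at 2.96 and 0.61 TPM in dermal CCR6+, 1.92 and 2.19 in dermal Sca1+, and 5.71, 9.28 and 3.15 in subcutaneous libraries. Counts of Col5a2 were 1392-fold higher in subcutaneous than in epidermal libraries, with a 95% exact Poisson interval of 385 to 11500 because epidermal libraries held 2 counts. Col5a3 was at least 568-fold higher in subcutaneous libraries, against a floor of 3 counts over the epidermal group, and such intervals and floors cover counting error only. Both were called in all 3 comparisons with epidermal libraries. Col5a1 (chr2:27886425-28039514) was the exception among the fibrillar genes, with 5.93, 2.97 and 2.9 TPM in epidermal libraries, more than the other 10 fibrillar genes together in any of them. It had 8.39 and 10.6 TPM in dermal CCR6+, 4.93 and 2.7 in dermal Sca1+, and 11.5, 10.8 and 8.11 in subcutaneous libraries. The Col5a1 level was therefore high in dermal CCR6+ and subcutaneous libraries and overlapped between epidermal and dermal Sca1+ ones. Its log2 fold change was -1.56 ± 0.31 between epidermal and subcutaneous libraries (SE, adjusted p = 0.00547) and -1.43 ± 0.34 between epidermal and dermal CCR6+ libraries (adjusted p = 0.0305). Between epidermal and dermal Sca1+ libraries the difference was -0.13 ± 0.34 (adjusted p = 0.877). The call against dermal CCR6+ was lost with limma-trend, with the length offset, with only those groups in the fit and with a replicate block by title number. It was also lost without epidermal replicate 2 or 3 or without subcutaneous replicate 2. The adjusted p of Col5a1 was 0.0509 to 0.165 in these cases. Without dermal CCR6+ replicate 1 or 2, which leaves 1 library in that group, the log2 fold change was -1.57 or -1.28. Exons of Col5a1 share 99 bases with 2810430I11Rik and 113 with Gm13372 on the other strand, 1.17% and 1.33% of its exonic bases.

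Of the remaining fibrillar genes, Col27a1 was highest in dermal CCR6+ replicate 2, at 1.97 TPM, and was at or below 0.95 TPM in the other 9 libraries. Col11a1 was detected only in subcutaneous libraries, at 0.39, 0.85 and 0.12 TPM. Col24a1 had 5 counts, all in subcutaneous libraries. Col2a1, the collagen of cartilage, and Col11a2 were at 0 in all 10 libraries. None of these was called in any comparison.

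**Figure D4:**
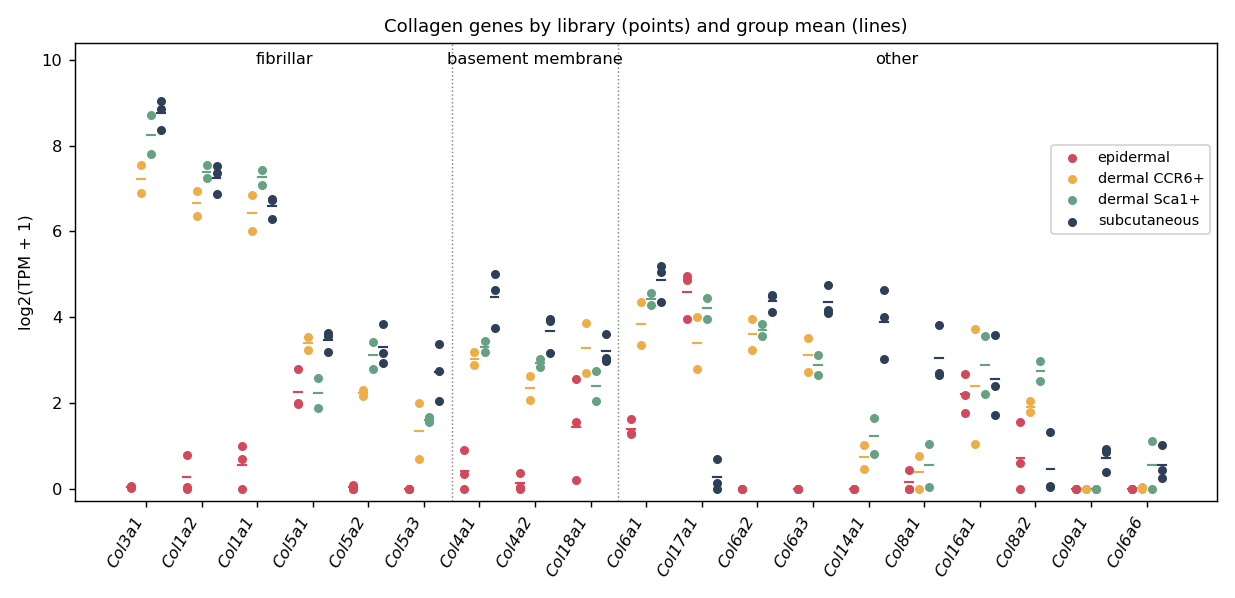
Level of the 19 collagen genes called in at least 1 comparison or with a mean of at least 5 TPM in a group, as log2(TPM + 1) (y axis), 1 point per library and 1 line per group mean of the log values. The epidermal points of Col3a1, Col1a2 and Col1a1 lie near 0 while those of Col17a1 lie above all its subcutaneous points.

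In the basement membrane class, only the pair that makes the common type IV network was called. Col4a1 (chr8:11198423-11312826) and Col4a2 (chr8:11312805-11449287) encode its chains, start head to head on opposite strands, and share 22 exonic bases. These were 2 of 9 genes tested, lower in epidermal than in subcutaneous, dermal CCR6+ and dermal Sca1+ libraries. Of all genes tested, 13.3%, 5.19% and 8.66% were lower in these comparisons, and 20.2%, 6.18% and 11.4% were called in either direction. Against subcutaneous libraries, the class was thus called about as often as all genes. Col4a1 had 0, 0.86 and 0.27 TPM in epidermal, 8.11 and 6.32 in dermal CCR6+, 9.8 and 8.06 in dermal Sca1+, and 30.9, 23.6 and 12.5 in subcutaneous libraries. Col4a2 had 0.28, 0 and 0.03 TPM in epidermal, 5.2 and 3.19 in dermal CCR6+, 7.07 and 6.14 in dermal Sca1+, and 14, 14.6 and 7.96 in subcutaneous libraries. For both genes every epidermal library lay below every dermal one, and every dermal one below every subcutaneous one. The log2 fold change between epidermal and subcutaneous libraries was -6.4 ± 0.89 for Col4a1 (SE, adjusted p = 0.000635) and -7.15 ± 0.89 for Col4a2 (adjusted p = 0.00031). The step from dermal to subcutaneous libraries was not called for either, with log2 fold changes of -1.64 ± 0.81 for Col4a1 (adjusted p = 0.261) and -1.56 ± 0.77 for Col4a2 (adjusted p = 0.259) between dermal CCR6+ and subcutaneous libraries. From dermal Sca1+ they were -1.33 (adjusted p = 0.485) and -1.11 (adjusted p = 0.552). From dermal CCR6+, both were called without the filter (adjusted p = 0.000165 and 0.00806) and with only those groups in the fit (0.036 and 0.0475). Col4a1 was also called there without epidermal replicate 1 (adjusted p = 0.0334), and from dermal Sca1+ without the filter (0.00536). Endothelial sums were 505 and 197 CPM in dermal CCR6+, 669 and 666 CPM in dermal Sca1+ and 383 to 738 CPM in subcutaneous libraries. Mural sums were 365 and 129 CPM, 502 and 514 CPM, and 350 to 552 CPM in these groups. Per summed CPM of endothelial markers, Col4a1 was 0.064 to 0.174 in dermal and 0.114 to 0.411 in subcutaneous libraries, which overlapped. What vessel cells contribute to the levels of Col4a1 and Col4a2 was not tested.

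The other 7 genes of the class were not called in any comparison. Col18a1, whose product carries endostatin at its end, had 4.85, 0.15 and 1.93 TPM in epidermal, 13.5 and 5.46 in dermal CCR6+, 3.14 and 5.68 in dermal Sca1+, and 11.2, 6.89 and 7.31 in subcutaneous libraries. The epidermal spread of Col18a1 was as wide as its mean, 2.31 ± 2.37 TPM (SD, n = 3), and its difference from subcutaneous libraries was -2.19 ± 0.8 on the log2 scale (SE, adjusted p = 0.0817). Col18a1 was called without epidermal replicate 1, with DESeq2, with limma-trend on log2(TPM + 1) and without the filter. Col15a1, of the same family, had 5.82, 2.46 and 0.88 TPM in epidermal libraries and 0.54 to 3.26 TPM in all others, so that its groups overlapped. Col7a1, the anchoring fibril collagen of the dermal-epidermal junction, had 3.56, 0.34 and 2.37 TPM in epidermal, 1.32 and 0.03 in dermal CCR6+, 3.23 and 0 in dermal Sca1+, and 0, 0.28 and 0.26 in subcutaneous libraries. In TPM it was above its subcutaneous range in all 3 epidermal libraries, but epidermal replicate 2 rested on 2 counts. Subcutaneous libraries held 0, 18 and 24 counts of Col7a1, so that the groups overlapped in counts. Its log2 fold change of 2.14 ± 2.04 did not pass (SE, adjusted p = 0.53). Col4a5 lay between 0 and 2.81 TPM and Col4a6 between 0 and 2.74 TPM, the highest value of both coming from subcutaneous replicate 1. Col4a3 and Col4a4 stayed at or below 1.14 TPM.

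Type VI collagen forms beaded microfilaments around cells, and its 3 main chains are made by Col6a1, Col6a2 and 1 longer chain such as Col6a3. All 3 genes were lower in epidermal than in any other group. Col6a2 (chr10:76595762-76623630) was at 0 in all epidermal libraries, at 14.5 and 8.44 TPM in dermal CCR6+, 10.8 and 13.4 in dermal Sca1+, and 21.4, 21.9 and 16.2 in subcutaneous libraries. Col6a3 (chr1:90765923-90843971) was likewise at 0 in all epidermal libraries, at 10.49 and 5.54 TPM in dermal CCR6+, 7.67 and 5.28 in dermal Sca1+, and 26, 16.9 and 16.2 in subcutaneous libraries. Their counts were at least 1169-fold (Col6a2) and at least 1437-fold (Col6a3) higher in subcutaneous than in epidermal libraries. Col6a1 (chr10:76708792-76726168) differed from its partners in that it was present in the epidermis, at 1.42, 1.45 and 2.1 TPM. It had 19.3 and 9.11 TPM in dermal CCR6+, 18.5 and 22.5 in dermal Sca1+, and 35.5, 32 and 19.4 in subcutaneous libraries. In the epidermal libraries 274 counts of Col6a1 stood against none of Col6a2 and Col6a3, although the protein needs all 3 kinds of chain. The log2 fold change of Col6a1 was -4.26 ± 0.38 between epidermal and subcutaneous libraries (SE, adjusted p = 4.24e-05). Col6a3 was also lower in dermal CCR6+ than in subcutaneous libraries, by -1.96 ± 0.43 (SE, adjusted p = 0.029), while 3.71% of all genes tested were lower there. That call was lost with limma-trend, with the length offset (adjusted p = 0.212), without either dermal CCR6+ replicate and without any of the 3 subcutaneous replicates, with adjusted p of 0.0615 to 0.219. Between dermal Sca1+ and subcutaneous libraries the log2 fold change of Col6a3 was nearly the same, -1.91, but was not called (adjusted p = 0.0677). It was called there with DESeq2 (adjusted p = 0.000946), without the filter, with the filter of 5 CPM and with only those groups in the fit. Of the remaining type VI genes, Col6a6 had 0 TPM in epidermal, 0.03 and 0 in dermal CCR6+, 1.14 and 0 in dermal Sca1+, and 1.01, 0.18 and 0.34 in subcutaneous libraries. It was called between epidermal and subcutaneous libraries (adjusted p = 0.0447), a call lost with limma-trend and without any 1 of those 6 libraries. It was also lost with a replicate block by runs of deposited numbers (adjusted p = 0.0688). Col6a5 had counts in 2 libraries, at 0.31 and 0.29 TPM, and Col6a4 had none.

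Among the fibril-associated genes, which coat the surface of fibrils or link them, only Col14a1 was called lower in every other group than in subcutaneous libraries. Col14a1 (ENSMUSG00000022371.15, chr15:55307750-55520803) encodes the chain of type XIV collagen, which binds type I fibrils. It was at 0 in all epidermal libraries, at 1.02 and 0.38 TPM in dermal CCR6+, 2.15 and 0.74 in dermal Sca1+, and 23.9, 15 and 7.18 in subcutaneous libraries. The lowest subcutaneous value was above the highest dermal one. That was not particular to Col14a1. Col4a1, Col4a2, Col5a3, Col6a2, Col6a3, Col8a1, Col9a1 and Col11a1 also had every subcutaneous library above every other one in TPM. The share of all genes that part in this way was not counted. The log2 fold change was -4.46 ± 0.74 between dermal CCR6+ and subcutaneous libraries (SE, adjusted p = 0.00946). It was -3.67 ± 0.71 between dermal Sca1+ and subcutaneous libraries (adjusted p = 0.0392), where 0.993% of all genes tested were lower. The first call was lost without dermal CCR6+ replicate 2 (adjusted p = 0.0856), and the second with the length offset (adjusted p = 0.113) and without any 1 of the 5 libraries compared (adjusted p = 0.0532 to 0.139), while the direction held each time. Per unit of Col1a1, the Col14a1 level was 0.00429 to 0.016 in dermal and 0.0931 to 0.227 in subcutaneous libraries. Per summed CPM of fibroblast markers it was 0.00208 to 0.0113 and 0.0313 to 0.0884.

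Col16a1, which encodes type XVI collagen, was present in every group and was not called in any comparison. Its TPM were 5.33, 2.38 and 3.54 in epidermal, 12.3 and 1.05 in dermal CCR6+, 10.7 and 3.63 in dermal Sca1+, and 11, 4.21 and 2.29 in subcutaneous libraries. Libraries of 1 group differed more than the groups did, and all groups overlapped. Col12a1, a close relative of Col14a1, was spread likewise, with 0.12 to 0.54 TPM in epidermal, 3.49 and 0 in dermal CCR6+, 5.64 and 1.61 in dermal Sca1+, and 0.42 to 2.38 in subcutaneous libraries. The type IX genes encode a cartilage collagen. Col9a1 had counts in subcutaneous libraries alone (30, 11 and 27), with 0.9, 0.3 and 0.81 TPM, and so passed the filter only through the group where it was high. With that limit, it was at least 28.6-fold higher there than in epidermal libraries (adjusted p = 0.0403). That call was lost with DESeq2 (adjusted p = 0.101), with the length offset (adjusted p = 0.0522) and without any 1 of those 6 libraries. Under both replicate blocks it was lost as well (adjusted p = 0.161 and 0.148). Col9a2 and Col9a3 had 0.17 to 2.47 TPM in subcutaneous libraries and 1.02 and 1.29 TPM in dermal Sca1+ replicate 2, and were at or below 0.03 TPM in the other 6 libraries. Col9a3 shares 6.07% of its exonic bases with Tcfl5 on the other strand. The 6 cartilage markers of the list used summed to 6.5, 1.81 and 14.2 CPM in epidermal and 13.7 to 20.6 CPM in dermal libraries. In subcutaneous libraries they summed to 161, 33 and 51.1 CPM. Of these 6, 5 were at 0 in every epidermal library and Hapln1, Matn1 and Matn3 were at 0 in every subcutaneous library. In subcutaneous replicate 1, 5 of them were at 0. Col19a1 and Col20a1 stayed at or below 0.97 TPM, and Col22a1 had no count.

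Of the short-chain collagens, Col8a1 and Col8a2, whose products build networks in vessel walls and under endothelium, went in different directions. Col8a1 (chr16:57624258-57754737) had 0, 0 and 0.35 TPM in epidermal, 0.68 and 0 in dermal CCR6+, 0.03 and 1.07 in dermal Sca1+, and 13.1, 5.43 and 5.27 in subcutaneous libraries. It was lower in epidermal than in subcutaneous libraries, by -6.09 ± 1.86 (SE, adjusted p = 0.0429). That call was lost without epidermal replicate 1 or 2 or any of the 3 subcutaneous replicates (adjusted p = 0.0769 to 0.119). Under both replicate blocks it was lost as well (adjusted p = 0.0652 and 0.0717). Every subcutaneous library was above every dermal one for Col8a1, but its differences of -4.52 and -3.92 from dermal CCR6+ and Sca1+ to subcutaneous libraries were not called (adjusted p = 0.221 and 0.391). They were called with limma-trend on log2(TPM + 1) (adjusted p = 0.00293 and 0.00849) and without the filter. Its partner Col8a2 was highest in the dermis, with 3.14 and 2.42 TPM in CCR6+ and 4.69 and 6.92 in Sca1+ libraries, against 0.52, 0 and 1.91 in epidermal and 1.48, 0.04 and 0.02 in subcutaneous libraries. All 4 dermal libraries were above the other 6, yet no comparison of Col8a2 passed, with adjusted p of 0.368 to 0.97. With limma-trend on log2(TPM + 1), Col8a2 was called higher in dermal Sca1+ than in epidermal (adjusted p = 0.0226) and subcutaneous libraries (adjusted p = 0.0255), and so it was without the filter. Col10a1 stayed at or below 0.5 TPM.

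Among the membrane-spanning genes, Col17a1 (ENSMUSG00000025064.14, chr19:47646344-47692094) was the only collagen called higher in epidermal libraries. Its product, type XVII collagen, sits in the hemidesmosomes that fasten basal keratinocytes to the basement membrane. Its TPM were 29.8, 14.5 and 28.3 in epidermal, 15.1 and 5.96 in dermal CCR6+, 14.6 and 20.9 in dermal Sca1+, and 0.62, 0.1 and 0 in subcutaneous libraries. Epidermal and dermal libraries overlapped, and all 7 of them were above all subcutaneous ones. The log2 fold change over subcutaneous libraries was 6.51 ± 0.88 in epidermal (SE, adjusted p = 0.000557), 5.39 ± 0.88 in dermal CCR6+ (adjusted p = 0.00488) and 6.21 ± 0.9 in dermal Sca1+ libraries (adjusted p = 0.00585). Col17a1 was the 1 member higher in dermal CCR6+ than in subcutaneous libraries, where 3.75% of all genes tested were higher, and the 1 member higher in dermal Sca1+ than in subcutaneous libraries, where 1.21% were. Between epidermal and dermal libraries the differences were 1.11 ± 0.77 for CCR6+ (adjusted p = 0.489) and 0.3 ± 0.75 for Sca1+ (adjusted p = 0.87). Of all genes tested, 6.87%, 3.75% and 1.21% were higher in epidermal, dermal CCR6+ and dermal Sca1+ than in subcutaneous libraries. Among the 10 keratinocyte markers it was 10, 8 and 7, in that order. Of these, Krt15 had 810 ± 384 CPM (SD, n = 3) in epidermal, 664 ± 126 (n = 2) in dermal CCR6+, 812 ± 63.5 (n = 2) in dermal Sca1+ and 2.13 ± 1.21 (n = 3) in subcutaneous libraries. Krtdap, a marker of differentiating keratinocytes, had 1317 ± 929 CPM in epidermal and 82.7 ± 14.4 CPM in dermal CCR6+ libraries. The summed keratinocyte markers did not overlap between epidermal and dermal libraries, whereas Col17a1 did. Per summed CPM of keratinocyte markers, Col17a1 stood at 0.0102 to 0.0373 in epidermal and at 0.0196 to 0.052 in dermal libraries. In subcutaneous libraries it stood at 0.0146, 0.00551 and 0, on 39, 7 and 0 counts of Col17a1. What keratinocyte RNA contributes to the Col17a1 level was not tested.

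The other membrane-spanning genes were scarce and not called. Col13a1 was at 0 in all epidermal libraries, at 2.28 and 3.08 TPM in dermal CCR6+, 0.93 and 0 in dermal Sca1+, and 0.25, 0.88 and 0 in subcutaneous libraries. Both dermal CCR6+ libraries were above all others for Col13a1, on 134 counts, and its difference from epidermal libraries had an adjusted p of 0.0888. Col23a1 had 0.44 to 0.92 TPM in epidermal libraries, 1.15 and 0.62 in dermal CCR6+, 1.66 and 4.3 in dermal Sca1+, and 0 to 0.77 in subcutaneous ones. Col25a1 stayed at or below 0.71 TPM in every library. Col26a1 and Col28a1, the remaining genes placed in no subclass, stayed at or below 0.85 TPM.

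Outside the epidermis few members were called, and some ratios between members, not all, lay apart in dermal and subcutaneous libraries. Between the dermal CCR6+ and Sca1+ libraries edgeR called 0 of 37 members, with 0.642% of all genes tested called (0.296% higher and 0.346% lower in CCR6+). In that comparison 5 members (Col5a2, Col3a1, Col5a1, Col9a3 and Col25a1) had an unadjusted p under 0.05, against 10.9% of all genes tested. DESeq2 called 2 there, Col3a1 as lower and Col5a1 as higher in CCR6+ libraries, and limma-trend on log2(TPM + 1) called 0. Between dermal CCR6+ and subcutaneous libraries 1 member was higher and 3 were lower, namely Col14a1, Col6a3 and Col3a1, while 7.46% of all genes tested were called. Without dermal CCR6+ replicate 2, the library with the lowest collagen level outside the epidermis, 1 of these 4 was called. Col3a1 was lower in dermal CCR6+ than in subcutaneous libraries by -1.74 ± 0.34 (SE, adjusted p = 0.0117), and without that replicate the adjusted p was 0.124. Between dermal Sca1+ and subcutaneous libraries 1 member was higher and 1 was lower, Col17a1 and Col14a1, while 2.2% of all genes tested were called. Col17a1 alone of these 2 was called without any 1 of the 5 libraries compared.

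Ratios within a library, which do not depend on how much collagen RNA it held, are given as descriptions with no test. Col3a1 stood to Col1a1 in TPM as 1.64 and 1.85 in dermal CCR6+, 1.66 and 2.42 in dermal Sca1+, and 4.38, 4.9 and 4.26 in subcutaneous libraries. The 3 subcutaneous libraries lay close together and above all 4 dermal ones. In expected counts the same ratio was 0.977 to 1.51 in dermal and 2.86 to 3.13 in subcutaneous libraries, so that the order did not rest on the length correction. Col1a1 stood to Col1a2 as 0.778 to 0.931 in dermal and 0.591 to 0.66 in subcutaneous libraries, although the type I molecule holds more of the Col1a1 chain than of the Col1a2 chain. Col4a1 stood to Col4a2 as 1.31 to 1.98 in dermal and 1.57 to 2.21 in subcutaneous libraries, and the groups overlapped. Col5a1 stood to Col5a2 as 2.15 and 3.06 in dermal CCR6+, 0.829 and 0.28 in dermal Sca1+, and 0.858 to 1.37 in subcutaneous libraries. Per summed CPM of fibroblast markers, Col1a1 was 0.73 to 1.07 in dermal and 0.37 to 0.49 in subcutaneous libraries, whereas Col3a1 was 0.996 to 1.16 and 1.16 to 1.49. Fibrillar collagens together were 2.6 to 3.83 and 2.2 to 2.83 on that scale.

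**Figure D5:**
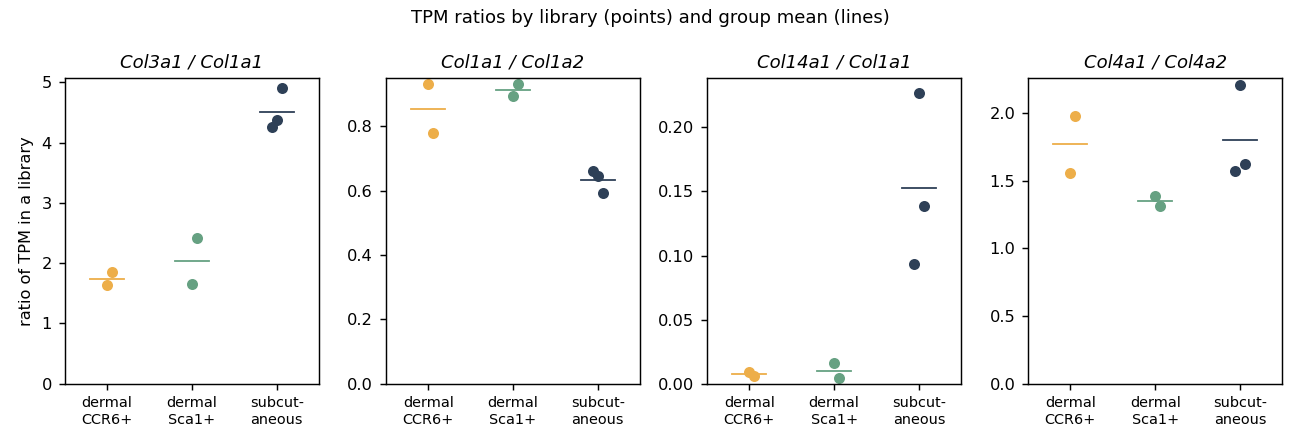
Ratio of the TPM of 2 collagen genes within a library (y axis, from 0) for dermal CCR6+, dermal Sca1+ and subcutaneous libraries, 1 point per library with the group mean as a line. Col3a1 over Col1a1 and Col14a1 over Col1a1 are higher in every subcutaneous than in every dermal library, Col1a1 over Col1a2 is lower, and Col4a1 over Col4a2 overlaps.

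The average length of the transcripts that RSEM assigned to a gene is given for libraries with at least 50 counts of the gene, as a description with no test. For Col3a1 it was 3543 to 3822 bases in dermal and 3897 to 4200 bases in subcutaneous libraries. For Col6a3 it was 3048 to 4394 and 4649 to 5186 bases, and for Col14a1 4191 and 3978 in the 2 dermal libraries with enough counts and 4783 to 4924 in subcutaneous ones. Col16a1 went the other way, with 2857, 3265 and 3468 bases in the 3 dermal libraries with enough counts and 1784 to 2677 in subcutaneous ones. The length was 4100 bases for Col6a1 and 8406 for Col5a1 in all 10 libraries. The share of each transcript behind these lengths was not analysed here.

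Genes that act on collagen are given by the step they serve. Inside the cell, chains are hydroxylated, glycosylated and folded before they are secreted. Of 19 such genes tested, 6 were lower and none was higher in epidermal than in subcutaneous libraries, with a median log2 fold change of -0.68 against -0.02 over all genes tested. Over all genes tested, 13.3% were lower and 6.87% higher in this comparison, which applies to each list that follows. Serpinh1, the collagen chaperone HSP47, had 3.22 ± 2.49 CPM (SD, n = 3) in epidermal, 89.7 ± 27.8 (n = 2) in dermal CCR6+, 142 ± 60.1 (n = 2) in dermal Sca1+ and 158 ± 61.5 (n = 3) in subcutaneous libraries. Its log2 fold change was -5.59 ± 0.65 between epidermal and subcutaneous libraries (SE, adjusted p = 0.000202). Fkbp10, a folding factor for procollagen, changed by -4.67 ± 1.06 (adjusted p = 0.0111) and the lysyl hydroxylase Plod1 by -2.32 ± 0.35 (adjusted p = 0.00115). P4hb, the abundant subunit of prolyl hydroxylase that also serves other proteins, had 498 ± 34.5 CPM in epidermal and 774 ± 37 CPM in subcutaneous libraries (log2 fold change -0.64 ± 0.15, adjusted p = 0.0137).

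Outside the cell, procollagen ends are cut off and chains are crosslinked. Of 12 such genes tested, 6 were lower and none was higher in epidermal than in subcutaneous libraries, against 13.3% and 6.87% of all genes tested. Pcolce and Pcolce2, which enhance the cutting of the C-terminal end, and the crosslinking enzyme Lox were at 0 in every epidermal library. They were at least 824-fold, 686-fold and 236-fold higher in subcutaneous libraries (adjusted p = 8.82e-06, 7.24e-05 and 0.0101). Adamts2, which cuts the N-terminal end, was not called, with 20.7 ± 9.04 CPM in epidermal and 43.7 ± 17.4 CPM in subcutaneous libraries (adjusted p = 0.119). Loxl1 and Bmp1 were also lower in dermal CCR6+ than in subcutaneous libraries, by -3.48 and -2.14 on the log2 scale (adjusted p = 0.00854 and 0.0113). They were 2 of 12 genes tested, while 3.71% of all genes tested were lower there. They were named after their values were seen.

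All 10 fibril-binding proteoglycans and glycoproteins tested were lower in epidermal than in subcutaneous and in dermal Sca1+ libraries, and 8 of 10 than in dermal CCR6+ libraries. Over all genes tested, 13.3%, 8.66% and 5.19% were lower in these comparisons. Dcn, Lum and Dpt also stand in the fibroblast list. Ogn was at 0 in all epidermal libraries and at least 1524-fold higher in subcutaneous ones (adjusted p = 0.00013). Dpt, dermatopontin, had 3 epidermal counts and was 1253-fold higher in subcutaneous libraries, with a 95% exact interval of 428 to 6080. Dcn, decorin, had a log2 fold change of -8.17 ± 1.28 (adjusted p = 0.00138), and Sparc, the most abundant of the list, of -6.25 ± 0.45 (adjusted p = 1.19e-05). Ogn and Dpt were lower in dermal CCR6+ than in subcutaneous libraries as well, by -4.01 and -3 on the log2 scale (adjusted p = 0.0173 and 0.0118), as Col14a1 was. They were 2 of 10 genes tested, while 3.71% of all genes tested were lower there. Fmod, fibromodulin, was the 1 gene of the list that was higher in dermal Sca1+ than in subcutaneous libraries, where 1.21% of all genes tested were higher. It had 40.9 ± 15 against 2.64 ± 1.52 CPM (adjusted p = 0.0271), and was named after its values were seen.

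Genes of collagen breakdown and its inhibitors were lower in epidermal than in subcutaneous libraries in 7 of 11 genes tested, and none was higher, against 13.3% and 6.87% of all genes tested. Ctsk, the collagen-cutting cathepsin K, and Fap, a protease of activated fibroblasts, were at 0 in all epidermal libraries and at least 327-fold and 127-fold higher in subcutaneous ones (adjusted p = 6.66e-05 and 0.0228). The stromelysin gene Mmp3 had a log2 fold change of -6.28 ± 1.53 (adjusted p = 0.0158), and the inhibitor gene Timp2, the most abundant of the list, of -0.73 ± 0.2 (adjusted p = 0.0306). Mmp9, which was named after its values were seen, was the 1 gene of the list that was higher in epidermal than in dermal Sca1+ libraries. It had 41.9 ± 12.2 against 11.5 ± 0.37 CPM (adjusted p = 0.00602), while 2.75% of all genes tested were higher there. Mmp9 was also called lower in dermal Sca1+ than in subcutaneous libraries. It was not called between epidermal and subcutaneous or between epidermal and dermal CCR6+ libraries.

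Collagen receptors, through which cells sense and grip collagen, were lower in epidermal than in subcutaneous libraries in 4 of 7 genes tested, and none was called in either comparison of epidermal with dermal libraries. Of all genes tested, 20.2% were called in the first comparison, 6.18% against dermal CCR6+ and 11.4% against dermal Sca1+. Itga11, an integrin chain of fibroblasts, was at 0 in all epidermal libraries and at least 118-fold higher in subcutaneous ones (adjusted p = 0.0192). The receptor kinase gene Ddr2 had a log2 fold change of -5.35 ± 1.46 (adjusted p = 0.0267) and the integrin gene Itga1 of -2.45 ± 0.68 (adjusted p = 0.0289). Itgb1, the shared beta chain and the most abundant of the list, had 164 ± 53.4 CPM in epidermal and 449 ± 62.7 CPM in subcutaneous libraries (adjusted p = 0.0135). At an unadjusted p under 0.05, Itga1 and Ddr2 differed between epidermal and either kind of dermal library. Of all genes tested, 20.1% did so against dermal CCR6+ and 25.8% against dermal Sca1+.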

How the data were processed

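Per the labels' protocols, libraries were made with an Ultra Low Input RNA kit, spelled SMRT-seq there and taken to be SMART-Seq, followed by Nextera XT. That kit does not mark strand, so reads of overlapping genes cannot be told apart. Trimmomatic, STAR, RSEM and the mm10 build were used, per the submitters' processing notes; of versions, settings and annotation release, nothing is stated (not given in the sources used here). Per the file headers, every library came with its own RSEM gene table. Expected counts are the authors' estimated reads per gene, and the TPM values, also deposited, are scaled for effective length. Groups came from the titles, because the cell type label of the second library of either dermal population names no marker; the series design speaks of triplicates and 2 libraries of each were analysed here.

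IDs were matched to GENCODE M21 (GRCm38), whose coordinates are given; 30 of the 44 members had the same ID version there. Expected counts were rounded. Genes were kept by filterByExpr with a count minimum of 10, and 1 model with group as its term was fitted to all 10 libraries (edgeR 4.0.16, TMM, glmQLFit and glmQLFTest, two-sided; biological coefficient of variation 0.62). The SE is the absolute log2 fold change over the square root of F, derived and not a model output. Where a group had no count, a floor of 3 counts over the group was used. Members and lists were chosen with earlier results of these data known. Genes called in a comparison or with a mean of at least 5 TPM in a group are given in every library. Others are named from 1 TPM, some of them in every library, and scarcer members are given by their counts or highest level. Of the related lists, the called members with the 3 largest changes between epidermal and subcutaneous libraries and the most abundant member are named. Of the cell type lists, the 2 most abundant are named. Alternatives were edgeR with RLE factors, DESeq2 1.42.0, limma-trend (3.58.1) on log2(TPM + 1) and log2(TPM + 0.1), no filter, a filter of 5 CPM in 2 libraries, a length offset, only the 2 groups compared, 2 replicate blocks and leaving out each library. The test was checked on simulated data.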

Additional observations from a re-analysis of the deposited data

How the results depend on the processing

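No called difference changed direction under any of the 20 alternatives. Of 45 called pairs of gene and comparison, 32 were called under every alternative and 13 were lost under at least 1. Counts that moved by more than 1.5 times were as follows, and the cause was not tested. Between dermal CCR6+ and Sca1+ libraries, 0 members became 2 with DESeq2 and 3 without the filter. Between dermal CCR6+ and subcutaneous libraries, 4 became 9 without the filter and 7 with only those groups in the fit. Between dermal Sca1+ and subcutaneous libraries, 2 became 5 with DESeq2, 5 with limma-trend on log2(TPM + 1), 8 without the filter and 1 with the length offset. Between epidermal and dermal Sca1+ libraries, 11 became 19 without the filter. Leaving out 1 library gave 13 to 19 (epidermal and subcutaneous), 11 to 12 (epidermal and dermal CCR6+), 11 to 12 (epidermal and dermal Sca1+), 0 to 0 (both dermal), 1 to 5 (dermal CCR6+ and subcutaneous, 1 without dermal CCR6+ replicate 2) and 1 to 3 members (dermal Sca1+ and subcutaneous, 1 without any library of either group). Where 1 dermal library was left, it was assumed to vary like the other groups. Against dermal CCR6+ libraries, the epidermal calls of Col4a1 and Col4a2 were lost with only those groups in the fit (adjusted p = 0.0749 and 0.0524), that of Col14a1 there (adjusted p = 0.0743) and with limma-trend on either scale (0.482 and 0.0672), and that of Col5a3 with limma-trend on log2(TPM + 1) (0.145). Against dermal Sca1+ libraries, the call of Col14a1 was lost with limma-trend on log2(TPM + 1) (adjusted p = 0.139).

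Libraries share replicate numbers in their titles, but same-numbered libraries did not deviate together, with correlations of -0.0381 to 0.114, so the numbers were not taken as pairing. With the title number as a replicate block, 14 members were called between epidermal and subcutaneous libraries, 11 against dermal CCR6+, 11 against dermal Sca1+, and 0, 4 and 2 in the comparisons without epidermal libraries. With a second replicate block, by runs of deposited numbers, the counts were 13, 12, 11, 0, 4 and 2. The calls between epidermal and subcutaneous libraries were lost under both blocks for Col9a1 (adjusted p = 0.161 and 0.148) and Col8a1 (0.0652 and 0.0717), and under the second for Col6a6 (0.0688). The call of Col5a1 between epidermal and dermal CCR6+ libraries was lost under the first (adjusted p = 0.069). The median of all genes moved by up to 0.318 on the log2 scale with the length offset. Low counts limit the epidermal values, where 17 members had no count.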
